A study of Homo sapiens with 10 samples.

Results

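The transcription factor ATF4 and 9 genes placed with it, among them the serine synthesis enzymes, were followed through nanopore transcript counts of ovarian cancer cell lines. The genes were chosen by name (ATF4, ASNS, PHGDH, PSAT1, SHMT2, MTHFD2, CHAC1, DDIT3, TRIB3 and SESN2), with earlier results of these data known. The deposited annotation listed them under 10 of its 57110 gene identifiers and 38 of its 99493 transcripts. Long-read RNA sequencing had been performed on 7 established human ovarian cancer cell lines to benchmark a transcript quantification package. COV362, COV504, OVKATE, OVMANA, OVTOKO and SK-OV-3 had 1 library each, run on a PromethION. IGROV-1 had 2 PromethION and 2 MinION libraries, the latter from a smaller instrument of the same nanopore type. The labels name no treatment, genotype or medium for any line, and do not say whether the IGROV-1 replicates came from separate cultures, so p-values measure the spread between these libraries, which may be technical.

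ATF4 is the main effector of the integrated stress response, in which kinases that sense amino acid shortage, unfolded protein in the endoplasmic reticulum, haem shortage or double-stranded RNA phosphorylate the initiation factor eIF2α. General translation then falls while ATF4 mRNA is translated more, so that much of the control of ATF4 lies in translation, which mRNA counts do not show. ATF4 activates genes for amino acid synthesis, uptake and tRNA charging, and, when the stress lasts, genes such as DDIT3, CHAC1 and TRIB3. PHGDH and PSAT1 catalyse the first steps from 3-phosphoglycerate to serine, and SHMT2 and MTHFD2 pass the serine carbon on to folate in mitochondria.

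Library totals lay between 1729782 and 3666224 estimated counts. Levels are given as CPM, the count scaled to the library total, and each is an average over the cells of a culture, so that fewer expressing cells and less RNA per cell cannot be told apart. Of the ovarian carcinoma markers PAX8 was at 84.1 to 339.8 CPM in the 10 libraries, WT1 was at 76.2 CPM in OVKATE and 0.4 or less elsewhere, and MUC16 and MSLN were at 2.0 CPM or less in OVTOKO, SK-OV-3 and IGROV-1. The epithelial keratin KRT18 was at 243.6 to 4627 CPM. The other epithelial markers were low in some lines. EPCAM was at 1.5 CPM or less in IGROV-1, 8.7 in OVTOKO and 45.6 to 1813.5 elsewhere. KRT8 was at 5.2 to 11.4 CPM in IGROV-1 and 133.5 to 3273.6 elsewhere. KRT19 was at 0.6 CPM in OVTOKO and 136.3 to 1833.3 elsewhere. Of the leukocyte markers CD3E was at 0, PTPRC at 0.4 CPM or less and CD14 at 4.0 or less, while CD68, which other cell types also express, was at 346.7 to 1064.9 CPM. The epithelial cadherin CDH1 was at 0 in all 4 IGROV-1 libraries and at 1.6 to 5.1 CPM in OVTOKO, SK-OV-3 and COV362. In COV504, OVKATE and OVMANA it was at 59.2 to 214.3 CPM. Mitochondrial ribosomal RNA took 9.13% and 10.9% of the counts in the IGROV-1 PromethION libraries, 1.15% and 1.01% in the MinION libraries, and 1.58% to 3.31% in the other lines.

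ATF4 binds DNA with C/EBP partners at a composite element whose core was searched here as TGATGNAA, on both strands, in the window from 250 bases before to 50 bases after each RefSeq gene start (GRCh38.p14). Of the 10 genes, 9 were matched to this promoter table by symbol, all but SHMT2. The letters were found in 2 of the 9. Among all 35116 windows of this length 3.62% held them, and 4.46% of the 27305 genes had such a window. The 30 bases around each match are shown, since these are the members' windows in which the letters occur. Capitals mark the match, and each stretch reads 5′ to 3′ on the strand of the gene. The ASNS stretch, at chr7:97872458-97872487 (minus strand), has its match 68 bases before the RefSeq start at position 97872408. The CHAC1 stretch, at chr15:40953251-40953280 (plus strand), has its match on the opposite strand, 209 bases before the RefSeq start at position 40953471. GENCODE 29 also annotates transcripts that begin further upstream, and each stretch lies in a non-coding exon part of such transcripts, ENST00000175506 of ASNS (start 97872542) and ENST00000446533 (start 40953149) and ENST00000444189 of CHAC1. A match of letters describes the sequence and is no evidence of binding in these lines.
ASNS: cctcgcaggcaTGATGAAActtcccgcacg
CHAC1: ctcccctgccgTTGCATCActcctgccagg

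SK-OV-3 stood at the top of the order for 8 of the 10 genes. ATF4, ASNS, PHGDH, SHMT2, MTHFD2, CHAC1, DDIT3 and TRIB3 had their highest level there, and PSAT1 and SESN2 had theirs in OVMANA. For PHGDH and MTHFD2 the fit described below did not call SK-OV-3 apart from COV362 (log2 0.0 and 0.35). Of all 13030 genes tested, 18.5% were highest in SK-OV-3 and 10.6% in OVMANA. Each line was compared with IGROV-1 PromethION by edgeR's quasi-likelihood test on counts summed per gene, fitted to all 13030 genes, and a difference was called at a Benjamini-Hochberg adjusted p under 0.05. Only IGROV-1 is replicated, so the spread comes from its libraries, with 2 residual degrees of freedom, and is taken to hold for the lone ones. In SK-OV-3, 8 of the 10 genes were called higher and none lower, against 41.8% of all genes called in either direction, 22% higher and 19.8% lower. In OVMANA 3 genes were called, all higher (background 35.4%, of which 18.9% higher and 16.5% lower). In OVKATE 5 were called, 1 higher and 4 lower (49.2%, 26.8% and 22.4%). In OVTOKO 5 were called, 2 higher and 3 lower (34.1%, 18.2% and 15.9%). In COV362 7 were called, 5 higher and 2 lower (42.5%, 23.7% and 18.8%). In COV504 6 were called, 2 higher and 4 lower (43.5%, 24% and 19.6%). Without IGROV-1 MinION replicate 1 the OVTOKO count was 2, and COV504 had 3 without either MinION library and 4 without either PromethION library. OVMANA had 2 without PromethION replicate 1 or either MinION library. The median log2 difference of the 10 genes was 1.04 in SK-OV-3, 0.69 in COV362, 0.46 in OVMANA, -0.04 in OVTOKO, -0.35 in COV504 and -0.36 in OVKATE, beside medians over all genes of -0.01 to 0.04. These 6 comparisons share the IGROV-1 libraries. The genes were chosen with earlier results of these data known, so their counts beside the background shares are a description. In SK-OV-3 the calls of ATF4, SHMT2, MTHFD2, CHAC1, DDIT3 and TRIB3 held under every alternative run, DESeq2 included. The same was true of TRIB3 in OVMANA, ATF4 and PSAT1 in OVKATE, PHGDH in OVTOKO, and PSAT1, TRIB3 and SESN2 in COV504. All other calls were lost under some alternative. With mitochondrial ribosomal RNA removed the numbers of genes called became 8 in SK-OV-3, 4 in OVMANA, 5 in OVKATE, 5 in OVTOKO, 7 in COV362 and 5 in COV504. Under DESeq2 in place of edgeR they fell to 6, 1, 2, 2, 0 and 3.

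**Figure D1:**
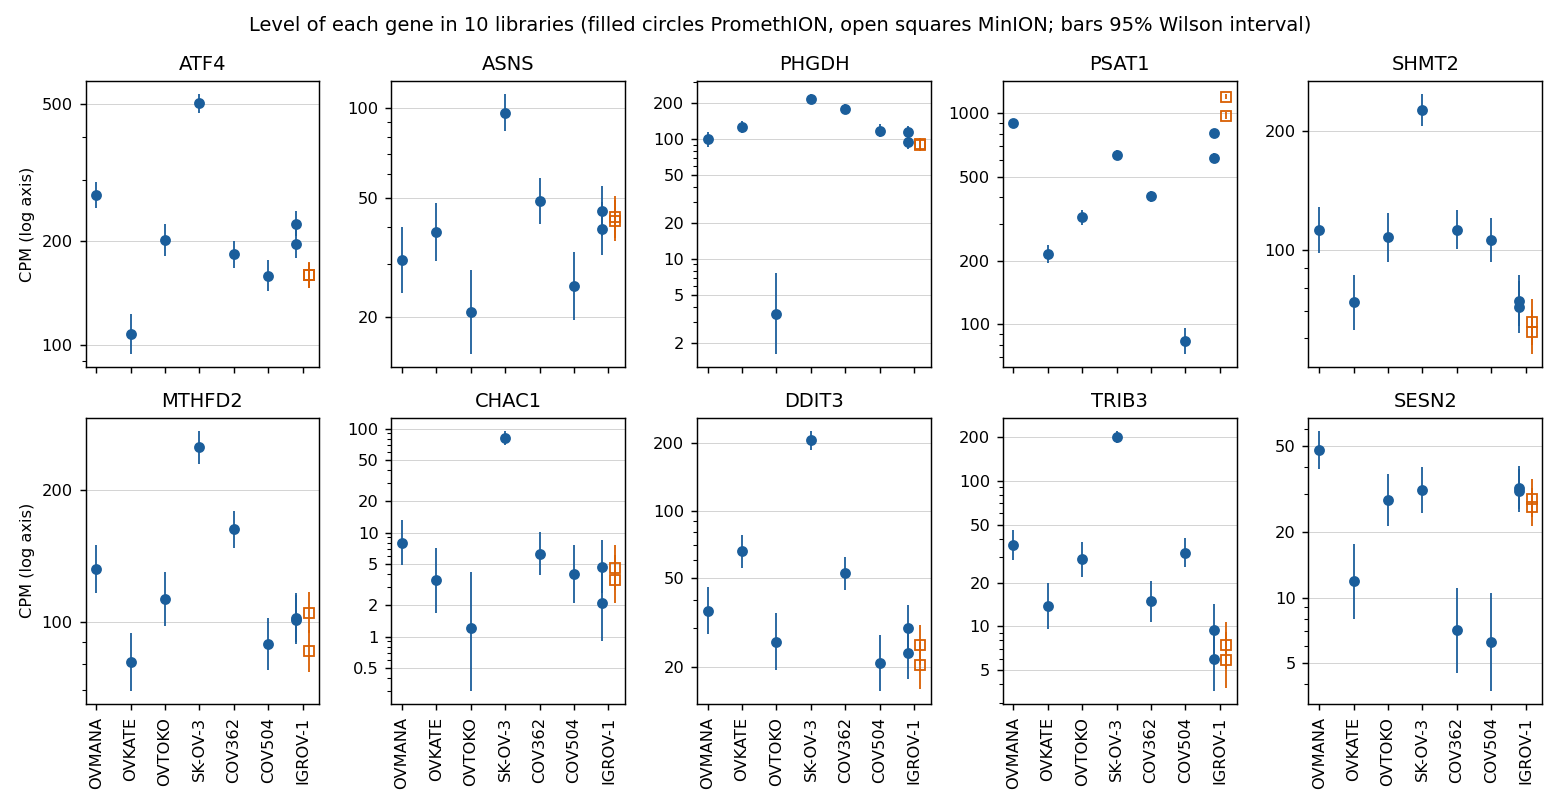
Level of each of the 10 genes (CPM, log axis, a separate scale per panel) in 7 lines, with filled circles for PromethION libraries, open squares for the MinION libraries of IGROV-1 and bars for 95% Wilson intervals, which cover counting error only. SK-OV-3 is the highest point for 8 genes, PHGDH drops to 3.5 CPM in OVTOKO, and PSAT1 and SESN2 follow another order.

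ATF4 itself (chr22:39519695-39522685, plus strand, GRCh38) was at 500.4 CPM in SK-OV-3, 272.0 in OVMANA, 201.2 in OVTOKO, 183.0 in COV362, 158.8 in COV504 and 107.3 in OVKATE. The IGROV-1 PromethION libraries held 196.1 and 224.6 CPM (mean 210.4 ± 20.2, SD, n = 2) and the MinION libraries 159.0 and 159.4 CPM. The SK-OV-3 library lay above, and the OVKATE library below, all 9 others. In the fit, ATF4 was 2.03-fold higher in SK-OV-3 than in IGROV-1 (log2 1.02, SE 0.15, edgeR adjusted p = 0.0012). It was 2.42-fold lower in OVKATE (log2 -1.27, SE 0.18, edgeR adjusted p = 0.00059). Between neighbours in the order, the steps from SK-OV-3 to OVMANA (edgeR adjusted p = 0.038) and from COV504 to OVKATE (0.016) were called, and the 4 steps between them were not. The COV504 difference from IGROV-1 (log2 -0.48, SE 0.17, edgeR adjusted p = 0.045) was lost without PromethION replicate 2 or either MinION library.

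The serine synthesis enzymes did not share an order. PHGDH (chr1:119648411-119744226, plus strand), the first and rate-controlling enzyme, was at 216.3 CPM in SK-OV-3, 178.6 in COV362, 126.1 in OVKATE, 117.9 in COV504, 99.4 in OVMANA 95.3 and 114.3 in IGROV-1 PromethION (104.8 ± 13.4, SD, n = 2) and 91.6 and 89.0 in IGROV-1 MinION, but at 3.5 CPM in OVTOKO, where 6 counts were assigned to it. The OVTOKO level lay far outside the range of the other 9 libraries, the lowest of which was a MinION library. PHGDH was 28.2-fold lower in OVTOKO than in IGROV-1 (log2 -4.82, SE 0.34, edgeR adjusted p = 2.8e-05), and the call held under every alternative run for it. PSAT1 (chr9:78297143-78330093, plus strand), the aminotransferase that acts next, was still at 321.4 CPM in OVTOKO, 2.09-fold lower than in IGROV-1 (edgeR adjusted p = 0.0091), a call that was lost without IGROV-1 MinION replicate 1. PSPH, the phosphatase of the last step, was at 42.2 CPM in OVTOKO and 11.8 in IGROV-1, where the fit gave a log2 difference of 1.91 (edgeR adjusted p = 0.0048). PSPH was also called higher in OVMANA (55.6 CPM, log2 2.30, edgeR adjusted p = 0.0014) and OVKATE (38.6 CPM, log2 1.41, edgeR adjusted p = 0.013), and IGROV-1 was its lowest line.

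PSAT1 was lowest in COV504 instead. It was at 892.9 CPM in OVMANA, 802.6 and 613.8 in IGROV-1 PromethION (708.2 ± 133.5, SD, n = 2), 1193.9 and 972.9 in IGROV-1 MinION, 635.1 in SK-OV-3, 403.1 in COV362, 321.4 in OVTOKO, 215.1 in OVKATE and 83.2 in COV504. The OVMANA and SK-OV-3 libraries fell within the range of the 4 IGROV-1 libraries, and the other 4 lines below it. PSAT1 was 8.98-fold lower in COV504 (log2 -3.17, SE 0.27, edgeR adjusted p = 5.1e-05) and 4.06-fold lower in OVKATE (log2 -2.02, SE 0.25, edgeR adjusted p = 0.00029). The COV362 difference (log2 -0.77, SE 0.23, edgeR adjusted p = 0.026) was lost without PromethION replicate 1 or either MinION library. In SK-OV-3 the log2 difference of -0.39 (SE 0.22) was not called (edgeR adjusted p = 0.2). PHGDH was not called in COV504 (log2 0.09, SE 0.18, edgeR adjusted p = 0.72).

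The mitochondrial folate enzymes had the smallest ratios between their highest and lowest line. SHMT2 (chr12:57229327-57234935, plus strand), which splits serine into glycine and a folate-bound carbon, was at 225.9 CPM in SK-OV-3 and at 73.7 to 112.4 CPM in the 5 other single-library lines. The IGROV-1 libraries held 74.3 and 71.7 CPM on the PromethION (73.0 ± 1.8, SD, n = 2) and 61.9 and 65.8 on the MinION. Its SK-OV-3 level was 2.64-fold that of IGROV-1 (log2 1.40, SE 0.15, edgeR adjusted p = 0.00022). SHMT2 was also called higher in OVMANA, OVTOKO, COV362 and COV504, by log2 0.46 to 0.68, and the COV504 call was lost when any of the 4 IGROV-1 libraries was left out, the OVTOKO call without PromethION replicate 2 or MinION replicate 1. MTHFD2 (chr2:74198562-74217565, plus strand), the dehydrogenase and cyclohydrolase that follows, was at 249.7 CPM in SK-OV-3, 162.6 in COV362, 132.0 in OVMANA, 112.7 in OVTOKO, 101.2 and 102.2 in IGROV-1 PromethION, 85.9 and 105.0 in IGROV-1 MinION, 89.0 in COV504 and 81.1 in OVKATE. No step between neighbouring lines in this order was called. Against IGROV-1, MTHFD2 was 2.09-fold higher in SK-OV-3 (log2 1.07, SE 0.16, edgeR adjusted p = 0.0011) and 1.65-fold higher in COV362 (edgeR adjusted p = 0.0078), and 1.55-fold lower in OVKATE (edgeR adjusted p = 0.018).

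ASNS (chr7:97852118-97872542, minus strand), which makes asparagine from aspartate and glutamine and is a classical ATF4 target, was at 96.7 CPM in SK-OV-3, 49.0 in COV362, 45.3 and 39.5 in IGROV-1 PromethION (42.4 ± 4.1, SD, n = 2), 42.0 and 43.3 in IGROV-1 MinION, 38.6 in OVKATE, 31.0 in OVMANA, 25.4 in COV504 and 20.8 in OVTOKO. The files join ASNS with the readthrough gene AC079781.5 under a single identifier, so the value includes both. SK-OV-3 stood alone at the top, and its step to COV362 was the only called step in the order (edgeR adjusted p = 0.032). ASNS was 1.95-fold higher in SK-OV-3 than in IGROV-1 (log2 0.96, SE 0.18, edgeR adjusted p = 0.0037). It was 1.93-fold lower in OVTOKO and 1.76-fold lower in COV504 (edgeR adjusted p = 0.017 in each), and both calls were lost without either MinION library, the COV504 call also without PromethION replicate 1.

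The stress effectors CHAC1, DDIT3 and TRIB3 showed the largest separation of SK-OV-3. CHAC1 (chr15:40952962-40956519, plus strand), which degrades glutathione, was at 82.0 CPM in SK-OV-3 from 162 counts, and at 8.0 in OVMANA, 6.3 in COV362, 4.0 in COV504, 3.5 in OVKATE and 1.2 in OVTOKO, from 2 to 16 counts each. IGROV-1 held 2.1 and 4.7 CPM on the PromethION and 3.5 and 4.6 on the MinION. CHAC1 thus cleared the low-count limit of 4.37 CPM in only 5 libraries, those of SK-OV-3, OVMANA and COV362 and IGROV-1 replicate 2 on each instrument. Its IGROV-1 levels lay near or under that limit, so its call in SK-OV-3 is given as a description. The fitted ratio to IGROV-1 was 20.1 (log2 4.33, SE 0.34, edgeR adjusted p = 4.2e-05), and the levels of the other lines could not be ordered at this depth.

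DDIT3 (chr12:57516588-57521737, minus strand), which encodes the proapoptotic factor CHOP, was at 206.1 CPM in SK-OV-3, 65.8 in OVKATE, 52.5 in COV362, 35.8 in OVMANA, 26.0 in OVTOKO, 20.9 in COV504, 23.1 and 30.1 in IGROV-1 PromethION (26.6 ± 5.0, SD, n = 2) and 25.1 and 20.4 in IGROV-1 MinION. The SK-OV-3 library lay above every other library, and OVKATE, COV362 and OVMANA above all 4 IGROV-1 libraries. DDIT3 was 6.61-fold higher in SK-OV-3 (log2 2.72, SE 0.22, edgeR adjusted p = 4.4e-05), 2.03-fold higher in COV362 (edgeR adjusted p = 0.01) and 2.01-fold higher in OVKATE (edgeR adjusted p = 0.0091). DDIT3 was thus called higher in OVKATE, the line with the lowest ATF4 level, and OVKATE and COV362 were not called apart (edgeR adjusted p = 0.99).

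TRIB3 (chr20:362835-397559, plus strand), a pseudokinase that is induced by ATF4 and CHOP and restrains ATF4, was at 200.1 CPM in SK-OV-3, 36.3 in OVMANA, 32.0 in COV504, 28.9 in OVTOKO, 14.9 in COV362, 13.8 in OVKATE, 9.4 and 6.0 in IGROV-1 PromethION (7.7 ± 2.4, SD, n = 2) and 7.4 and 5.9 in IGROV-1 MinION. IGROV-1 was the lowest line and all 6 others lay above its 4 libraries. The ratio to IGROV-1 was 22 in SK-OV-3 (log2 4.46, SE 0.25, edgeR adjusted p = 7.3e-06), 4.89 in OVMANA (0.00075), 3.94 in OVTOKO (0.0023) and 3.92 in COV504 (0.0013). The COV362 difference (log2 0.99, SE 0.35, edgeR adjusted p = 0.049) was lost without PromethION replicate 2 or either MinION library, and that of OVKATE was not called.

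SESN2 (chr1:28259527-28282491, plus strand), a leucine sensor that restrains mTORC1 and is also a p53 target, was at 48.1 CPM in OVMANA, 31.4 in SK-OV-3, 28.3 in OVTOKO, 11.9 in OVKATE, 7.1 in COV362 and 6.2 in COV504. IGROV-1 held 31.2 and 32.2 CPM on the PromethION (31.7 ± 0.7, SD, n = 2) and 26.2 and 28.7 on the MinION. The called steps in the order lay between OVMANA and IGROV-1 and between OVTOKO and OVKATE (edgeR adjusted p = 0.0042). SESN2 was 5.34-fold lower in COV504 (log2 -2.42, SE 0.30, edgeR adjusted p = 0.00039), 4.34-fold lower in COV362 (log2 -2.12, SE 0.28, edgeR adjusted p = 0.00064) and 3.28-fold lower in OVKATE (log2 -1.71, SE 0.27, edgeR adjusted p = 0.001). In SK-OV-3 it was not called (log2 -0.24, SE 0.22, edgeR adjusted p = 0.41), and the OVMANA call (log2 0.66, edgeR adjusted p = 0.037) was lost when any of the 4 IGROV-1 libraries was left out.

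**Figure D2:**
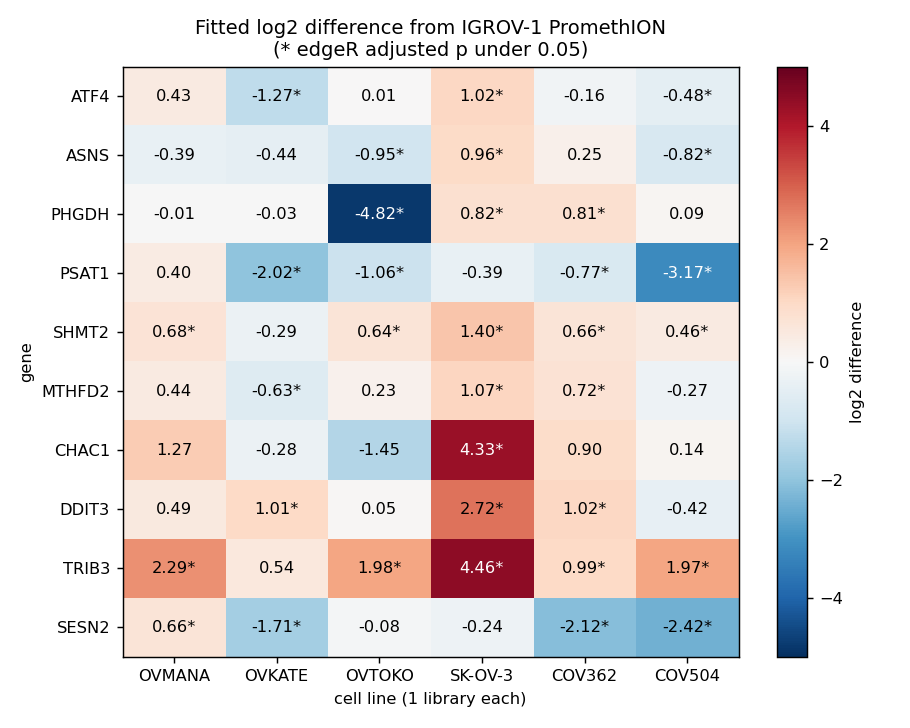
Fitted log2 difference of each gene in 6 lines (1 library each) from the IGROV-1 PromethION libraries, with the colour scale from -5 to 5 and an asterisk where the edgeR adjusted p was under 0.05. In SK-OV-3 8 of 10 cells are called and positive, while the other columns mix signs or hold fewer calls.

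Because SK-OV-3 was singled out after its values had been seen, its comparisons with the other lone libraries are given as a description. The number of the 10 genes called higher in SK-OV-3 was 8 against OVMANA (background 16.5% of all genes called higher), 10 against OVKATE (18.1%), 8 against OVTOKO (12.8%), 7 against COV362 (16.5%) and 10 against COV504 (13%). Against OVMANA the 2 remaining genes, PSAT1 and SESN2, were called lower (17.7% of all genes). All of these comparisons share the single SK-OV-3 library, so that nothing in the data separates the line from that library. SK-OV-3 also held fibroblast markers at a summed 329.7 CPM for 5 genes (COL1A1 219.3, COL1A2 57.2, LUM 52.7, DCN 0.5 and PDGFRB 0), beside 4.9 to 23.8 CPM in the IGROV-1 libraries and 0.6 to 434.1 CPM in the other lines. The part of those transcripts in the result was not tested.

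Over neighbouring lines in the order of each gene, 14 of 60 steps were called, against 9.42% of such steps over all genes. A called step joins neighbours that lay further apart than the spread, and the order was read from the same levels, so the count is a description. PHGDH spanned a ratio of 62.3 between its highest and lowest line, TRIB3 26, PSAT1 10.7, DDIT3 9.86 and SESN2 7.72. ATF4, ASNS, SHMT2 and MTHFD2 spanned 3.08 to 4.66. No ratio is given for CHAC1, whose 1.2 CPM in OVTOKO lay under the 3-count limit of 1.73 CPM there.

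Within IGROV-1, none of the 10 genes was called between the instruments by edgeR, where 0.817% of 10041 genes were. At an unadjusted p under 0.05 there were 2, and DESeq2 called 0. With a block for the replicate number, to which the labels give no meaning, edgeR called 2, ATF4 and PSAT1. The largest differences among the 10 were those of PSAT1, at 1083.4 ± 156.2 CPM on the MinION and 708.2 ± 133.5 on the PromethION (SD, n = 2 each, log2 0.58, SE 0.18, edgeR adjusted p = 0.17), and ATF4, at 159.2 ± 0.3 and 210.4 ± 20.2 CPM (log2 -0.44, SE 0.13, edgeR adjusted p = 0.15).

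Of the 38 transcripts, 32 had at least 1 count in a library, and 18 held at least 10% of their gene's counts in a library with 20 or more counts of the gene. ATF4, PHGDH, PSAT1, TRIB3 and SESN2 were each carried by a single transcript, with at least 92.4% of the counts in every such library. For ASNS, ENST00000394308 held 60.1% to 85.8%, and ENST00000175506, which has 1 more exon upstream of the same coding length, 5.0% to 27.2%. ENST00000394309 held 0.8% to 11.9%, and ENST00000641784, the AC079781.5 readthrough transcript, 0.7% to 10.7%. DDIT3 was split between ENST00000346473 (60.9% to 85.3%) and ENST00000547303 (7.4% to 31.5%), both with 507 coding bases, with 0.4% to 11.3% on ENST00000551116, which has 576. The transcript shares were tested with edgeR's diffSpliceDGE and a Simes p per gene, which covered 6 of the 10 genes in the line comparisons. The share of genes called over all 4730 genes tested was 2.75% in OVMANA, 4.97% in OVKATE, 1.35% in OVTOKO, 2.07% in SK-OV-3, 2.98% in COV362 and 2.56% in COV504. Of the 6 genes, only SHMT2 in SK-OV-3 was called. Between the instruments none of the 4 genes tested was called (background 5.98% of 2979 genes), and 0 passed an unadjusted p under 0.05.

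SHMT2 is annotated with alternative first exons. The longer coding form ENST00000328923 (12 exons, 1512 coding bases) starts in an exon whose coding part lies at chr12:57229779-57229811, and ENST00000414700 (12 exons, 1449 coding bases) begins downstream of it, at chr12:57230086-57234726, and lacks 63 coding bases or 21 codons. The first 33 coding bases of the longer form, in whose place the shorter form uses another start, are shown with the start codon included. They do not make up the whole difference of 63 bases.
SHMT2 exon 1 coding part: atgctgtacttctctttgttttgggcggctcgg
ENST00000414700 took 17.0% of SHMT2 counts in SK-OV-3 (75.7 of 446 counts, 95% Wilson interval 13.8% to 20.8%), 12.6% in OVKATE, 12.3% in COV362, 5.2% in COV504 and 2.5% in OVMANA and OVTOKO. IGROV-1 gave 1.8% and 5.0% on the PromethION (3.4% ± 2.3, SD, n = 2) and 5.1% and 3.9% on the MinION. The SK-OV-3, OVKATE and COV362 shares lay above all 4 IGROV-1 shares. The difference was called in SK-OV-3 (edgeR, Simes, adjusted p = 0.044), but the call was lost when any of the 4 IGROV-1 libraries was left out, where the adjusted p was 0.12 to 0.35. It was not called in OVKATE or COV362 (edgeR, Simes, adjusted p = 0.12 in each).

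MTHFD2 has a shorter annotated coding transcript, ENST00000409804 (5 exons, 666 coding bases), which lacks exons 3 to 5 of the main form ENST00000394053 (8 exons, 1050 coding bases). The skipped exons hold 384 coding bases, or 128 codons, and their removal keeps the reading frame. They are shown because their presence is what distinguishes the forms, and lie at chr2:74207704-74207826, chr2:74208569-74208721 and chr2:74209942-74210049 (plus strand, GRCh38).
MTHFD2 exon 3: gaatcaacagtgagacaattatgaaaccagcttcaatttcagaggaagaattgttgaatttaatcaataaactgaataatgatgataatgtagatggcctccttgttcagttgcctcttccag
MTHFD2 exon 4: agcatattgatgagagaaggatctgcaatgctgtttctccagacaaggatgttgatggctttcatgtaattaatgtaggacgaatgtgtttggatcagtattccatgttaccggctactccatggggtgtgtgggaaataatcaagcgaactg
MTHFD2 exon 5: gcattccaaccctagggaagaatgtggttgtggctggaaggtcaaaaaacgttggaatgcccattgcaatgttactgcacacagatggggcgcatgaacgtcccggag
The shorter form took 33.0% of MTHFD2 counts in COV362 (136.8 of 415 counts, 95% Wilson interval 28.7% to 37.7%). It took 19.6% in SK-OV-3, 15.3% in OVKATE, 15.0% in OVMANA and OVTOKO and 9.2% in COV504, and in IGROV-1 10.1% and 16.8% on the PromethION and 16.0% and 12.9% on the MinION. The COV362 interval did not overlap that of any other library, but counting error is only part of the spread between libraries. In the usage test the COV362 difference was not called (edgeR, Simes, adjusted p = 0.072), while edgeR's gene-wise F test gave an adjusted p of 0.02.

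**Figure D3:**
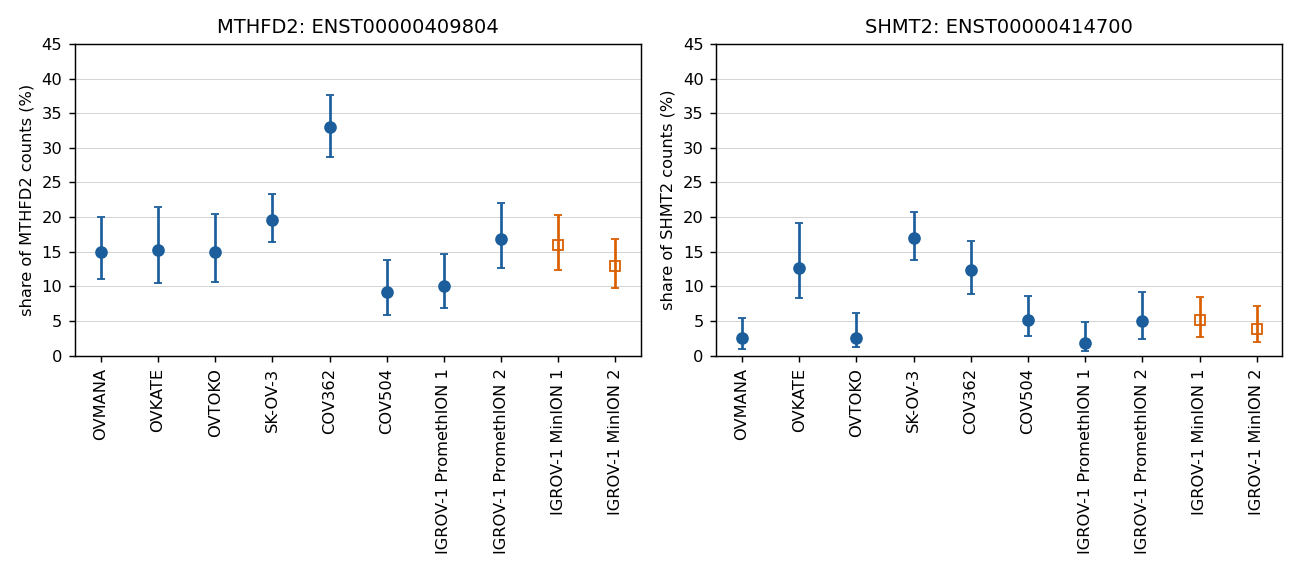
Share of MTHFD2 counts on ENST00000409804 (left) and of SHMT2 counts on ENST00000414700 (right) in each of 10 libraries, with 95% Wilson intervals, filled circles for PromethION and open squares for MinION. The MTHFD2 form reaches 33.0% in COV362, and the SHMT2 form lies at 12.3% to 17.0% in OVKATE, SK-OV-3 and COV362.

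The other genes of the pathway were taken from 7 lists with 64 genes, of which 62 were tested. The lists too were chosen with earlier results of these data known, so their counts are a description. In SK-OV-3, 26 of them were called higher than in IGROV-1 and 13 lower, with a median log2 difference of 0.41, beside 22% of all genes called higher and 19.8% lower, the shares against which the counts below are to be read. The 13 called lower were thus near the background share. The amino acid transporters were called higher for 6 of 9 and lower for none (median 1.20), and 7 of the 9 were highest in SK-OV-3, as were 18.5% of all genes. SLC7A11, which imports cystine, was at 97.2 CPM in SK-OV-3 and 1.2 to 15.0 CPM in the 6 other lines, and the glycine transporter SLC6A9 at 34.9 CPM and 0 to 10.2 CPM. The low ends of both ranges were those of OVTOKO and lay under its 3-count limit of 1.73 CPM. The cytosolic aminoacyl-tRNA synthetases, which charge tRNAs, were called higher for 7 of 12 and lower for none (median 0.66), with SARS at 399.6 CPM in SK-OV-3 and 91.0 in IGROV-1 (log2 1.90) and AARS at 222.3 and 68.1 CPM (log2 1.48). In OVTOKO 8 of the 12 synthetases were called, all lower, AARS at 24.9 CPM among them, where 15.9% of all genes were called lower.

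Of the listed serine and one-carbon enzymes outside the 10 genes, 1 of 12 was called higher in SK-OV-3 and 7 lower (median -0.69, background 22% and 19.8%). Of the 7 lower, ALDH18A1 and PYCR1 are enzymes of proline synthesis rather than of the serine or folate pathways. GLDC, the decarboxylase of the mitochondrial glycine cleavage system, was at 1.0 CPM in SK-OV-3, under the 3-count limit of 1.52 CPM, at 24.0 in IGROV-1 and 34.2 in OVMANA. The cytosolic enzyme SHMT1 was at 21.8 CPM in SK-OV-3 and 36.0 in IGROV-1 (log2 -0.95), while its mitochondrial counterpart SHMT2 was higher. MTHFD1L, also mitochondrial, was the single enzyme of this list called higher (45.1 and 21.4 CPM, log2 0.84).

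The upstream kinases and phosphatases were called higher for 1 of 7 and lower for 2 in SK-OV-3 (median -0.12), near the shares over all genes. The amino acid sensor EIF2AK4, also called GCN2, was at 108.9 CPM in SK-OV-3 and 58.7 in IGROV-1 (log2 0.66), and the unfolded protein sensor EIF2AK3, also called PERK, at 7.1 and 22.9 CPM (log2 -1.91). PPP1R15A, which brings the phosphatase to eIF2α, was at 40.0 CPM in SK-OV-3, 38.8 in IGROV-1 and 9.8 in COV362. Among partner and related transcription factors 5 of 7 were called higher and 1 lower (median 1.31). The 1 called lower was ATF3, at 4.1 CPM in SK-OV-3 and 18.4 in IGROV-1 (log2 -2.4). The stress cofactor NUPR1 was at 730.8 CPM in SK-OV-3, 156.8 in OVKATE, 83.1 in COV362, 30.3 in COV504, 8.5 in OVMANA, 3.0 in IGROV-1 and 0 in OVTOKO, where the 3-count limit is 1.73 CPM. JDP2 was highest in OVKATE at 85.1 CPM, with 36.0 in SK-OV-3 and 9.0 in IGROV-1. Of the other targets 4 of 7 were called higher and 2 lower (median 1.41). GDF15, a secreted stress cytokine, was at 140.3 CPM in SK-OV-3, 387.3 in IGROV-1 and 1607.8 in OVMANA, and CTH, which makes cysteine from cystathionine, at 13.7, 12.4 and 93.0 CPM.

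The genes of the other arms of the unfolded protein response, run by ATF6 and by ERN1 with XBP1, were called higher for 2 of 8 and lower for 1 in SK-OV-3 (median 0.33), near the shares over all genes. HERPUD1 was at 206.1 CPM in SK-OV-3, 131.3 in IGROV-1 and 36.4 in COV362. In COV362 5 of these 8 genes were called lower and 1 higher (median -1.27), where 18.8% of all genes were called lower and 23.7% higher. XBP1 had no count in COV504, which allows up to 1.33 CPM, and 69.2 to 188.4 CPM in the other lines.

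**Figure D4:**
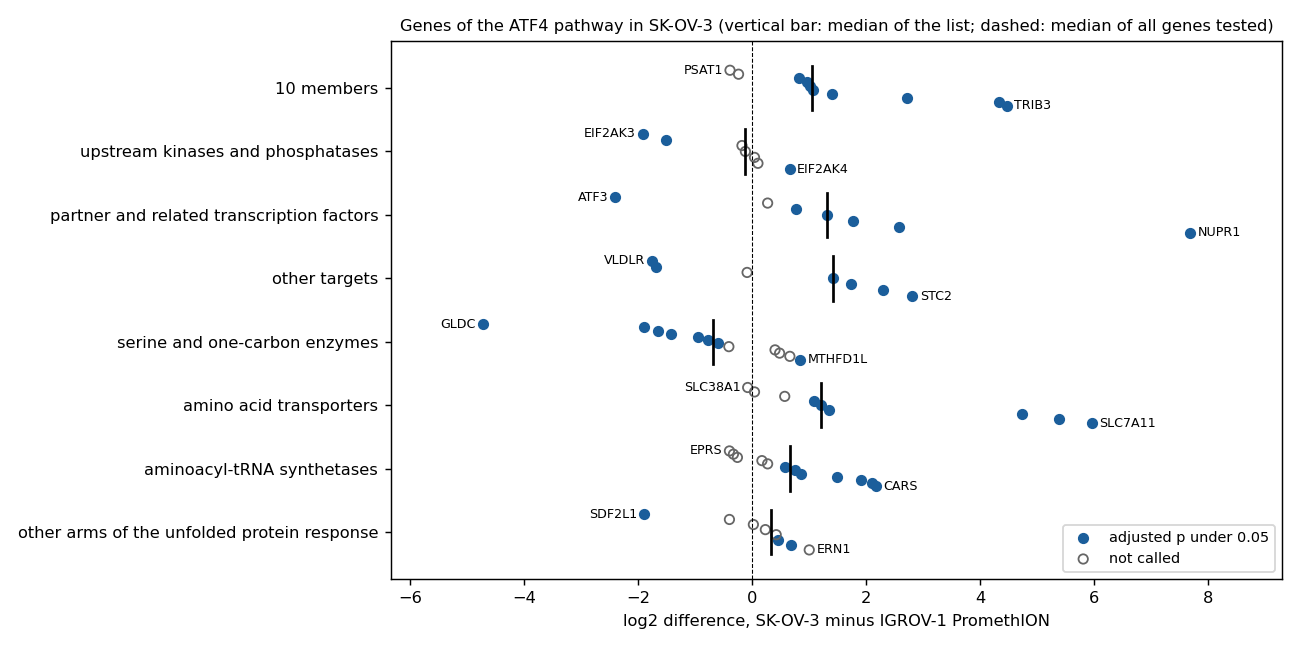
Log2 difference between SK-OV-3 and IGROV-1 PromethION for the 10 genes and the 62 tested genes of 7 lists, filled where the edgeR adjusted p was under 0.05, with a bar at each list's median and a dashed line at the median of all genes. Transporters and synthetases have no called gene below the line. Of the 12 genes listed as serine and one-carbon enzymes, 7 are called below it, ALDH18A1 and PYCR1 of proline synthesis among them.

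The genes whose level over the 7 lines was most like that of ATF4, by Pearson's r of log2(CPM + 1) among 11211 genes, were NXPE3 (0.964), CMTM3 (0.953) and SRRD (0.951). For PHGDH they were SET (0.983), TADA2B (0.975) and a joined identifier of ZNF585A, AC012309.1 and ZNF585B (0.975). SET was at 324.9 CPM in OVTOKO and 771.0 to 1272.7 CPM elsewhere. With 7 points, of which 1 stands apart in each case, and 11211 candidates, such values describe the order of the lines only.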

How the data were processed

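Nanopore libraries of 7 ovarian cancer cell lines were prepared from total RNA with a ligation kit (LSK-110), the end-repair step being lengthened to 30 min, per the labels' protocols. The submitters' processing notes name GRCh38 and minimap2 2.24-r1122 without a role. Quantification settings were not given in the sources used here. Each deposited file holds, per transcript, the authors' estimated counts (fractions allowed) and TPM values. The deposited TPM equalled CPM within 5.6e-11 and hence carries no length correction. Per the labels, samples were grouped by line and instrument. Estimated counts were summed per gene and rounded to whole numbers. They were tested with edgeR 4.0.16 (R 4.3.3), using TMM, its default filter by group, the quasi-likelihood test and two-sided Benjamini-Hochberg adjustment. Fitted differences use TMM scaling and so depart from plain CPM ratios. The SE printed with them was derived as the absolute log2 difference divided by the square root of the quasi-likelihood F statistic. The common biological coefficient of variation was 11.7% for genes and 14.7% for transcripts, and the quasi-likelihood test also used a spread estimated per gene. The edgeR gene test and the Simes usage test were tried on simulated data first, for OVMANA against IGROV-1 and between the instruments. DESeq2 and the gene-wise F test were not tried in this way. DESeq2 1.42.0, other scaling, filters, thinning, reference groups and left-out libraries were alternatives. A count of 0 allows 3 counts, and intervals (95% Wilson) cover counting error only. Gene and exon positions come from GENCODE 29. Named genes were all 10 members, member transcripts with at least 10% of their gene's counts in a library with 20 or more, the 2 most variable called genes with at least 10 CPM of each list, and the 3 genes most like ATF4 and PHGDH. PSPH, EIF2AK3, ATF3, MTHFD1L, ALDH18A1 and PYCR1 were named after their values were seen. The lists of cell type markers covered epithelial, ovarian carcinoma, fibroblast, leukocyte and endothelial genes, with summed levels of 404.0 to 8791.4, 86.1 to 616.8, 0.6 to 434.1, 350.7 to 1064.9 (nearly all CD68) and 0.5 to 25.8 CPM. The members and lists were chosen with earlier results of these data known. Of 19 annotated pseudogenes of the members, 2 had a count, the highest being 1.0, and the use of strand in counting is not stated.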

Additional observations from a re-analysis of the deposited data

How the results depend on the processing

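Of the 34 called differences of the 10 genes between a line and IGROV-1, 13 kept their direction and call under all alternatives and 25 under all but DESeq2. Over 408 alternative values none reversed and 61 lost the call. DESeq2 called 1 of the 10 genes in OVMANA, 2 in OVKATE, 2 in OVTOKO, 0 in COV362 and 3 in COV504, and 3 of 60 neighbouring steps. Over all genes it called 1442 in OVMANA (66.9% of them higher, 53.5% in edgeR), 2095 in OVKATE, 1298 in OVTOKO (65.6% higher, 53.4% in edgeR), 1672 in SK-OV-3, 1565 in COV362 and 1764 in COV504. The edgeR counts were 4613, 6405, 4443, 5446, 5544 and 5672. RLE scaling called 5 of the 10 in OVMANA. Leaving out 1 IGROV-1 library gave 2 to 3 genes in OVMANA, 2 to 5 in OVTOKO, 5 to 6 in COV362 and 3 to 4 in COV504, and always 5 in OVKATE, 8 in SK-OV-3 and 0 between instruments. OVTOKO had 2 without MinION replicate 1, where 2890 genes were called in all, and COV504 had 3 without either MinION library. The usage call in SK-OV-3 fell to 0 genes on leaving out any library. The gene-wise F test called 1 gene for usage in OVKATE and 2 in COV362, and a filter at 10 CPM called 1 in COV362. The cause of these changes was not tested.

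Same-numbered IGROV-1 libraries of the 2 instruments deviated together (r = 0.37 across 10041 genes, with 2 pairs), although the labels give the number no meaning. With a replicate block, 2 genes were called between instruments, ATF4 (log2 -0.44) and PSAT1 (log2 0.58), and 0 without it. No paired analysis was possible between lines because each other line has a single library.

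Reversals touched only differences that were not called. In OVMANA, PHGDH moved from -0.01 to 0.05 (DESeq2 and RLE), 0.03 (thinned, and without mitochondrial rRNA), 0.12 and 0.02 (without PromethION replicate 2 and MinION replicate 2), 0.10 (all 4 IGROV-1 libraries) and 0.02 (PromethION only). In OVKATE, PHGDH became 0.04 (DESeq2 and RLE), -0.16 to 0.10 (leaving out 1 library) and 0.08 (all 4 libraries), and CHAC1 0.20 (thinned) and -0.74 to 0.39 (leaving out 1 library). In OVTOKO, ATF4 became -0.03 (thinned) and -0.09 (without PromethION replicate 1), DDIT3 -0.14 to 0.25 (leaving out 1 library), and SESN2 0.13 (thinned) and 0.04 (all 4 libraries). ATF4 in COV362 became 0.04 (all 4 libraries). Leaving out 1 library gave, in COV504, -0.04 to 0.23 for PHGDH and -0.32 to 0.82 for CHAC1, and between instruments -0.13 to 0.07 for ASNS, -0.26 to 0.87 for CHAC1 and -0.54 to 0.11 for TRIB3. ASNS was 0.04 between instruments after thinning. Depth limits CHAC1 in every line but SK-OV-3.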

Other observations

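Over the 7 lines, the 45 pairs of the 10 genes had Pearson correlations of log2(CPM + 1) between -0.27 and 0.94 with a median of 0.60. The highest was that of SHMT2 with TRIB3, and the lowest that of PHGDH with SESN2. Without SK-OV-3 the 45 values ran from -0.76 to 0.82 with a median of 0.16. The points share 1 library per line, so these values are a description.

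The counts of CHAC1 in SK-OV-3 were split between ENST00000617768 (50.6%) and ENST00000446533 (44.7%), which start at different positions. The other PromethION libraries with 5 to 16 counts gave nearly the same shares, 50.8% to 51.3% and 45.1% to 47.9%, from fractional estimated counts. How reads were divided between the transcripts was not tested. In the IGROV-1 MinION libraries ENST00000446533 held 0.1 and 0.8 counts of 13 and 15, and in the PromethION libraries 2.3 and 5.0 counts of 5 and 11. In the same MinION libraries ENST00000617961 held 8.9 and 0.1 counts.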
